A study of Mus musculus with 6 samples.

Results

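The genes described here are those of the TGFb ligands and of the proteins that hold the ligands latent outside the cell: Tgfb1, Tgfb2, Tgfb3, Ltbp1, Ltbp2, Ltbp3, Ltbp4, Lrrc32 and Nrros. They were chosen by name, for what their proteins do, and are 9 of the 32285 genes in the feature list. Their transcripts were counted in nuclei of mouse brain lesions, to show which cells held each one and how the level in each cell class differed with time after injury, with deletion of the TGFb receptor in fibroblasts and with blockade of a TGFb-activating integrin.

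TGFb is secreted in an inactive form. Each ligand is made as a precursor whose cleaved propeptide stays wrapped around the growth factor, and this latent complex is tied to a carrier protein that decides where it is kept. Latent TGFb binding proteins (LTBPs) fix it in the extracellular matrix, on fibrillin and fibronectin, whereas GARP (encoded by Lrrc32) and LRRC33 (encoded by Nrros) hold it on the cell surface, GARP on regulatory T cells and platelets among others and LRRC33 on microglia and other myeloid cells. Release needs a further step, for which the integrin αvβ8 on a neighbouring cell is one of the main routes in the brain. It binds the propeptide of TGFb1 and TGFb3, which carries an RGD motif that the TGFb2 propeptide lacks.

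The lesions came from mice with a photothrombotic (PT) injury, in which a light-activated dye clots the vessels of a patch of cortex. Nuclei were sorted on DAPI and sequenced as 6 single-nucleus libraries, 1 for each of 3 conditions at 7 and 21 days post injury (dpi). They came from the dissected lesion, which the paper describes as lesional tissue with associated residual brain parenchyma. The share of such parenchyma was not given per library. Each library pooled tissue of male and female mice, 2 mice in all, so no group had a replicate library.

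Ctrl libraries came from wild-type mice with no treatment named. ADWA11 libraries came from wild-type mice given ADWA11, an antibody that blocks αvβ8, from the day of injury. Tgfbr2-cKO libraries came from mice carrying Col1a2-creER and Tgfbr2-flox with no further treatment named, in which tamoxifen-activated Cre, driven by the promoter of the collagen gene Col1a2, removes a Tgfbr2 exon from cells of the fibroblast lineage. Mice of the study were 7 to 21 weeks old unless stated otherwise, and no age was given per library.

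After filtering, 61137 nuclei were analysed, 6520 to 13013 per library, with a median of 4602 to 8223 UMIs per deposited barcode. Clusters were named from markers, as fibroblast-like, myeloid-like and so on, and the suffix is dropped below. Of the named classes, that called neutrophil was a mixture: 5 neutrophil and 4 myeloid markers were raised in it, and genes of other leukocytes (Btla, Igha, Siglecg) were among its leading 10. The T cell class held an unnamed low-UMI sub-cluster of 193 nuclei, led by myeloid genes such as Apoc1 and C1qa, with no T cell subtype marker raised. It made up 27.2%, 7.62%, 44.9%, 6.19%, 0.84% and 18.3% of the class, from Ctrl over ADWA11 to Tgfbr2-cKO, first at 7 and then at 21 dpi. A cluster led by the bone genes Bglap, Ibsp and Sp7 had as many fibroblast as osteoblast markers raised and stayed unnamed (cluster 20). The fibroblast class held a low-UMI sub-cluster of 4189 nuclei, 35.7% of them called doublets, led by myeloid genes such as Inpp5d and F13a1. Between 21 and 61 cell barcodes were shared by any 2 libraries. The Tgfbr2-cKO library of 7 dpi stood apart in its makeup: from Ctrl over ADWA11 to Tgfbr2-cKO, first at 7 and then at 21 dpi, neurons held 1.69%, 0.302%, 81.8%, 1.33%, 0.724% and 28.5% of its UMIs, and fibroblasts 35.3%, 31.8%, 2.17%, 54.8%, 37.2% and 16.7%. Tgfbr2 itself stood in fibroblasts at 330.1 (Ctrl), 253 (ADWA11) and 243 CPM (Tgfbr2-cKO) at 7 dpi, and in the same order 235, 205 and 191 CPM at 21 dpi. These UMIs come from the whole gene and do not separate transcripts with and without the floxed exon, so they are no check of the deletion.

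Levels are given as CPM, the UMIs of a gene per 1000000 non-mitochondrial UMIs, summed over the nuclei of a class in a library. A difference between libraries is the log2 ratio of their CPM, followed in brackets by its exact conditional binomial 95% interval, and intervals of a level are exact Poisson intervals. All of these intervals cover counting error only, not the difference between mice. With 1 library per group there was no test and no p-value, and a gene is called higher or lower past 2-fold where the log2 ratio was at least 1 in size over at least 20 UMIs. Ctrl libraries are shared between the Tgfbr2-cKO and ADWA11 comparisons, so these are not independent of each other. Ranges across libraries use libraries with at least 50 nuclei of the class.

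**Figure D1:**
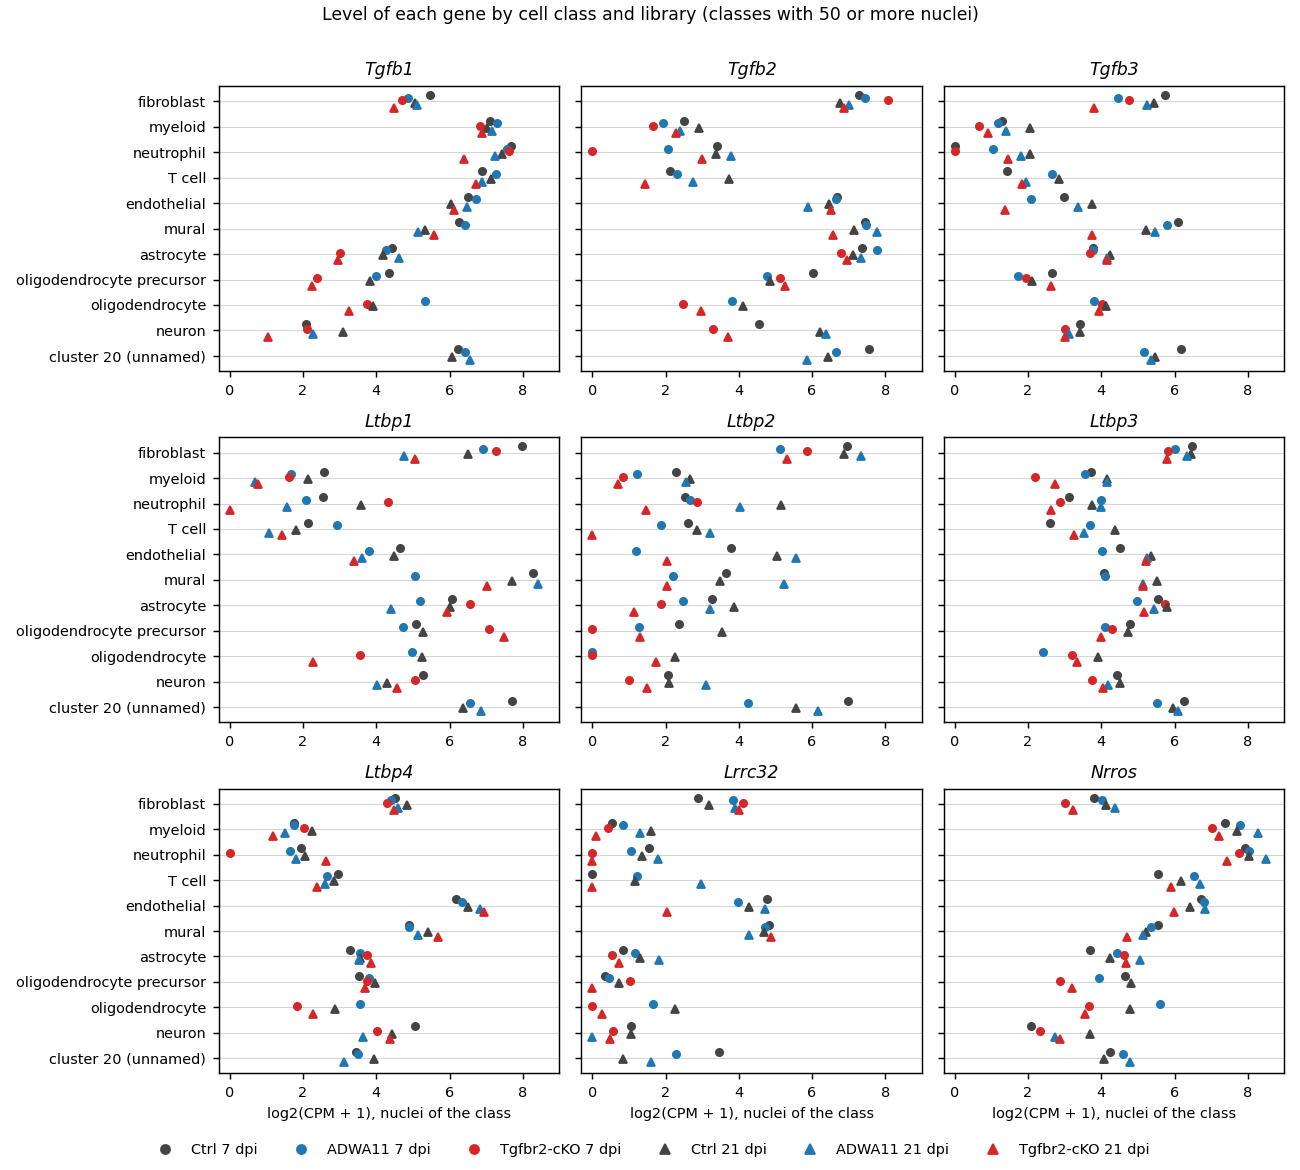
Level of each of the 9 genes in CPM (log axis) by cell class, with 1 point for each library that had at least 50 nuclei of the class. Tgfb1 and Nrros stood highest in leukocyte classes, Ltbp4 in endothelial nuclei, and the other 6 genes in fibroblasts, mural nuclei, astrocytes or cluster 20.

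Of the ligands, Tgfb1 (chr7:25687002-25705077, plus strand, GRCm38) was highest in the leukocyte classes of these lesions. Its CPM was 83.7 to 203 in the neutrophil class, 112 to 157 in myeloid nuclei and 105 to 152 in T cells, ranges that overlapped one another. These 3 ranges did not overlap those of astrocytes (6.78 to 23.8 CPM) or neurons (1.07 to 7.59 CPM), which held for T cells also without their sub-cluster led by myeloid genes (108 to 139 CPM in the same 5 libraries). The neutrophil range overlapped that of endothelial nuclei (65.1 to 104 CPM). In myeloid nuclei its level was 136 (Ctrl), 157 (ADWA11) and 112 CPM (Tgfbr2-cKO) at 7 dpi, and in the same order 128, 143 and 118 CPM at 21 dpi. At both times the Tgfbr2-cKO library was lowest and the ADWA11 library highest, by less than 2-fold. In fibroblasts Tgfb1 stood at 43.6 (Ctrl), 28.1 (ADWA11) and 25.1 CPM (Tgfbr2-cKO) at 7 dpi, and in the same order 32.00, 33.6 and 21.3 CPM at 21 dpi, below the myeloid value in every library. Without the fibroblast sub-cluster led by myeloid genes these levels were 34.9, 21.5 and 20.8 CPM at 7 dpi. At 21 dpi they were then 25.2, 24.6 and 14.2 CPM. Myeloid nuclei held 48.1% to 81.1% of the Tgfb1 UMIs of a library, more than any other class in each of the 6.

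Tgfb2 (chr1:186622792-186705989, minus strand) was distributed differently, although the ranges of both ligands overlapped in endothelial nuclei, where Tgfb2 stood at 57.98 to 102 CPM. Tgfb2 was highest in mural nuclei (93.99 to 217 CPM), astrocytes (109.9 to 216 CPM) and fibroblasts (109 to 268 CPM), whose ranges overlapped, and stood at 2.18 to 6.54 CPM in myeloid nuclei. In fibroblasts its level was 154 (Ctrl), 173 (ADWA11) and 268 CPM (Tgfbr2-cKO) at 7 dpi, and in the same order 109, 129 and 117 CPM at 21 dpi. The Tgfbr2-cKO library of 7 dpi was the highest of the 6 and the rest lay between 109 and 173 CPM, but its female nuclei held 120.4 CPM, below the 163 CPM of female Ctrl nuclei, and its male nuclei 415 CPM. In astrocytes, which hold injured tissue apart behind the glial scar, it was 164 (Ctrl), 216 (ADWA11) and 109.9 CPM (Tgfbr2-cKO) at 7 dpi, and in the same order 139, 160.3 and 123 CPM at 21 dpi. Among fibroblast sub-clusters, in libraries with at least 50 of their nuclei, it was 198 to 342 CPM in myofibroblasts, the contractile matrix-producing state, and 27.1 to 322 CPM in leptomeningeal fibroblasts, whose highest value was that of Tgfbr2-cKO at 7 dpi. Summed over libraries, inhibitory neurons of a sub-cluster with Igfbpl1 among its leading genes held 89.7 CPM (76.8 to 104).

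Tgfb3 (chr12:86056745-86079041, minus strand; it overlaps Ttll5 on the other strand) was a transcript of mural nuclei (12.5 to 67.8 CPM), cluster 20 (34.7 to 71.8 CPM) and fibroblasts (12.9 to 52.01 CPM), in overlapping ranges. Its fibroblast level was 52.01 (Ctrl), 20.8 (ADWA11) and 25.9 CPM (Tgfbr2-cKO) at 7 dpi, and in the same order 42.3, 36.7 and 12.9 CPM at 21 dpi. The Ctrl library was highest at both times. Oligodendrocytes (12.9 to 16.4 CPM) and astrocytes (11.9 to 18.03 CPM) came next, then neurons (7.06 to 9.76 CPM), whose range did not overlap that of astrocytes. Late inner fibroblasts, the sub-cluster named for markers of the mature inner layer of the lesion, held 152 CPM in Ctrl at 7 dpi and 64.5 CPM at 21 dpi, against 55.5 and 41.8 CPM in myofibroblasts of the same libraries. Within neurons it reached 48.1 CPM (33.5 to 66.9) in a sub-cluster of 53 inhibitory nuclei, 52 of them from Tgfbr2-cKO at 7 dpi.

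Of the matrix carriers, Ltbp1 (chr17:75005568-75392512, plus strand) binds the latent form of each TGFb. Its median over libraries was highest in mural nuclei (32.6 to 343 CPM), followed by cluster 20 (81.4 to 209.5 CPM) and fibroblasts (26.1 to 249 CPM), all overlapping. In fibroblasts it stood at 249 (Ctrl), 119.7 (ADWA11) and 153 CPM (Tgfbr2-cKO) at 7 dpi, and in the same order 88.95, 26.1 and 32.1 CPM at 21 dpi. Every 21 dpi value was below every 7 dpi value, and Ctrl was the highest library at each time. The mural value of the 7 dpi Ctrl library rested on few nuclei, since 93.9% of its 214 UMIs lay in 5 nuclei. Its female nuclei held 22.8 CPM and its male nuclei 936 CPM. Within the fibroblasts of Ctrl at 7 dpi, Ltbp1 was 443 CPM in late inner fibroblasts, 293 in myofibroblasts, 214 in the leptomeningeal sub-cluster, 102 in arachnoid fibroblasts and 31.9 CPM in the sub-cluster led by the transporter genes Slc47a1 and Slc47a2. In Ctrl at 21 dpi these were 146, 125, 278, 82.1 and 43.3 CPM, so the leptomeningeal sub-cluster led there and the Slc47a1-led one was lowest on both days. Outside these classes, astrocytes held 20.2 to 93.6 CPM, oligodendrocyte precursors 25.6 to 179 CPM, with the highest value in Tgfbr2-cKO at 21 dpi, and neurons 15.2 to 37.6 CPM. Myeloid nuclei held 0.616 to 4.93 CPM.

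Ltbp2 (chr12:84783212-84876532, minus strand), an LTBP that is not known to carry latent TGFb and is tied to elastic fibres, was the member most restricted to fibroblasts. Its fibroblast level was 124 (Ctrl), 34.1 (ADWA11) and 57.6 CPM (Tgfbr2-cKO) at 7 dpi, and in the same order 116, 159.8 and 38.9 CPM at 21 dpi. The 7 dpi ADWA11 and the 21 dpi Tgfbr2-cKO libraries were the lowest and the 21 dpi ADWA11 library was the highest. Fibroblasts held 57.1% to 91.8% of its UMIs, the largest share in all 6 libraries. Outside fibroblasts and cluster 20 (17.97 to 126 CPM), the class medians were at most 12.7 CPM, that of endothelial nuclei. In Ctrl at 7 dpi, late inner fibroblasts held 254, myofibroblasts 152, the Slc47a1-led sub-cluster 27.6 and arachnoid fibroblasts 1.24 CPM, and in Ctrl at 21 dpi 234, 448, 58.8 and 15.8 CPM. Late inner fibroblasts and myofibroblasts were the upper pair on both days, in another order.

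Ltbp3 (chr19:5740904-5758532, plus strand) had a graded distribution. Fibroblasts (54.8 to 87.6 CPM) and cluster 20 (44.9 to 75.8 CPM) overlapped at the top, fibroblasts lay just above astrocytes (30.5 to 53.97 CPM), and myeloid nuclei held 3.55 to 16.8 CPM. Its level in fibroblasts was 87.6 (Ctrl), 64.04 (ADWA11) and 55.1 CPM (Tgfbr2-cKO) at 7 dpi, and in the same order 85.9, 79.3 and 54.8 CPM at 21 dpi, with the Tgfbr2-cKO library lowest at both times. Neurons held 12.4 to 21.7 CPM, overlapping oligodendrocyte precursors (14.8 to 26.4 CPM).

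Ltbp4 (chr7:27305136-27337692, minus strand), which binds fibulins in elastic fibres, was highest in endothelial nuclei. They held 71.1 to 121 CPM, above mural nuclei (28.9 to 50.1 CPM), which were in turn above fibroblasts (18.5 to 27.4 CPM), with no overlap between neighbours. In fibroblasts it was 21.7 (Ctrl), 20.2 (ADWA11) and 18.5 CPM (Tgfbr2-cKO) at 7 dpi, and in the same order 27.4, 23.1 and 21.3 CPM at 21 dpi, so the libraries were close together. Arachnoid fibroblasts held 55.1 CPM in Ctrl at 21 dpi, above the Slc47a1-led sub-cluster (27.4 CPM), and 17.4 CPM in Ctrl at 7 dpi, below myofibroblasts (29.3 CPM). Fibroblasts, with more nuclei, still held the largest share of the Ltbp4 UMIs of each Ctrl and ADWA11 library (57.4% to 66.9%).

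Of the membrane carriers, Lrrc32 (chr7:98489283-98502181, plus strand) was sparse. It stood at 18.3 to 28.2 CPM in mural nuclei, 3.14 to 26.5 CPM in endothelial nuclei and 6.44 to 16.5 CPM in fibroblasts, and the range of mural nuclei did not overlap that of fibroblasts. In fibroblasts it was 6.44 (Ctrl), 13.3 (ADWA11) and 16.5 CPM (Tgfbr2-cKO) at 7 dpi, and in the same order 8.14, 13.8 and 14.97 CPM at 21 dpi. The ADWA11 and the Tgfbr2-cKO library were both above Ctrl at each time. T cells as a class held 0 to 6.83 CPM. Regulatory T cells, which display GARP, held 16.8 CPM (8.69 to 29.4) from 12 UMIs, 207 of their 249 nuclei coming from ADWA11 at 21 dpi. In that library they held 17.2 CPM and the CD4 T sub-cluster 2.02 CPM.

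Nrros (chr16:32142785-32165594, minus strand) was a myeloid transcript. Its level was 171 to 362 CPM in the neutrophil class and 129 to 307 CPM in myeloid nuclei, the latter above endothelial nuclei (62.7 to 114 CPM) with no overlap, and 3.23 to 11.9 CPM in neurons. In myeloid nuclei it was 165 (Ctrl), 221 (ADWA11) and 129 CPM (Tgfbr2-cKO) at 7 dpi, and in the same order 209, 307 and 148 CPM at 21 dpi. ADWA11 was the highest and Tgfbr2-cKO the lowest library at both times. Myeloid nuclei held 67.3% to 89.04% of its UMIs. The myeloid class was not of the same sub-clusters in these libraries. From Ctrl over ADWA11 to Tgfbr2-cKO, first at 7 and then at 21 dpi, both microglial sub-clusters together made up 46.6%, 4.36%, 75.2%, 48.4%, 2.28% and 67.1% of its nuclei. They were named from markers such as P2ry12, Tmem119 and Sall1, and the paper reports a dysmature myeloid signature with ADWA11. Whether microglia with less of these markers fell into other sub-clusters was not tested. Border macrophages held more Nrros than either microglial sub-cluster within a library, 293 against 125 and 148 CPM in Ctrl at 7 dpi and 379 against 181 and 182 CPM in Ctrl at 21 dpi. The sub-cluster led by the interferon-response genes Iigp1 and Gbp4, with 1125 of its 1303 nuclei from ADWA11 at 21 dpi, held 319.6 CPM there.

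**Figure D2:**
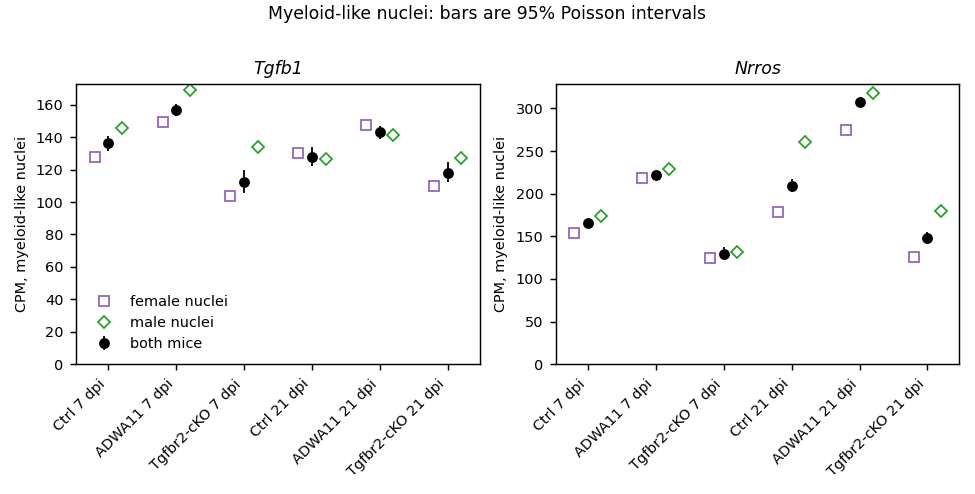
CPM of Tgfb1 and Nrros in myeloid nuclei by library, with exact Poisson 95% intervals (counting error only) and 1 library per group. Tgfb1 lay between 112 and 157 CPM, and Nrros between 129 CPM in the 7 dpi Tgfbr2-cKO and 307 CPM in the 21 dpi ADWA11 library.

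**Figure D3:**
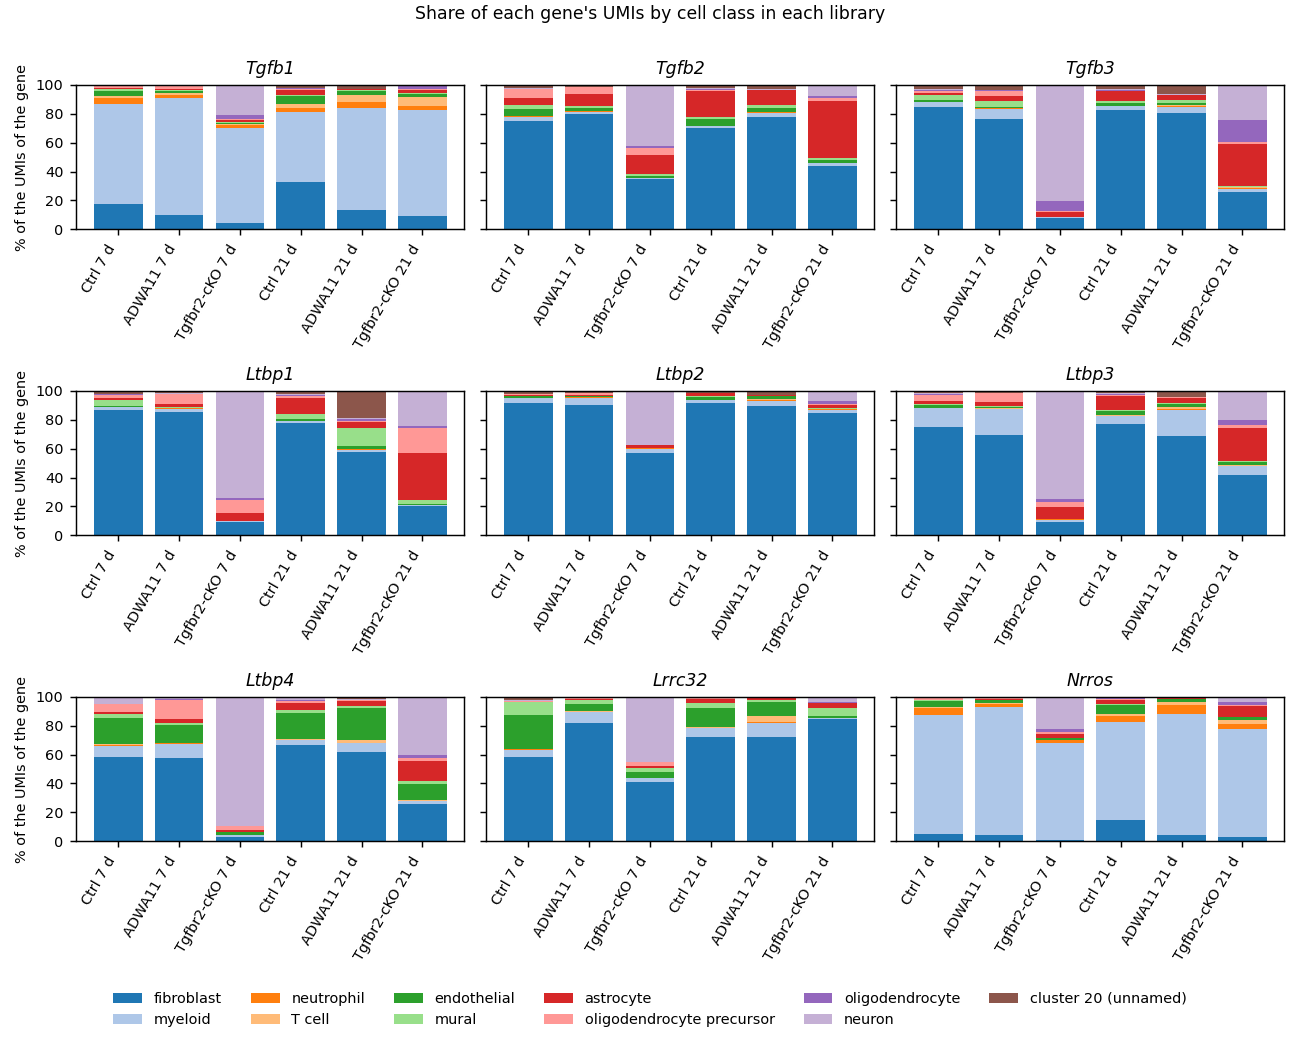
Percentage of each gene's UMIs held by each cell class in each of the 6 libraries. Myeloid nuclei led for Tgfb1 and Nrros and fibroblasts for Ltbp2 in all 6 libraries, and neurons led for the remaining 6 genes in the 7 dpi Tgfbr2-cKO library.

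Which class held most of a gene's transcripts therefore depended on the library for 6 of the 9 genes. Tgfb2, Tgfb3, Ltbp1, Ltbp3, Ltbp4 and Lrrc32 had their largest share in fibroblasts in the 4 Ctrl and ADWA11 libraries. In the 7 dpi Tgfbr2-cKO library it lay in neurons, at 42.5% for Tgfb2, 80.4% for Tgfb3, 74.4% for Ltbp1, 75.1% for Ltbp3, 89.1% for Ltbp4 and 44.9% for Lrrc32. For Tgfb2 and Lrrc32 it lay in fibroblasts instead in male nuclei alone and after each nucleus was thinned to 2000 UMIs. In the 21 dpi Tgfbr2-cKO library astrocytes led for Tgfb3 (28.7%) and Ltbp1 (32.4%), neurons for Ltbp4 (40.1%), and fibroblasts for Tgfb2 (43.6%), Ltbp3 (41.6%) and Lrrc32 (84.6%). Of these, the leading class of Tgfb2, Tgfb3, Ltbp1 and Ltbp4 was another in female nuclei alone, in male nuclei alone or after thinning. These shares follow the number of nuclei captured as well as the level in each nucleus. Fibroblasts numbered 404 and 1043 nuclei in the Tgfbr2-cKO libraries of 7 and 21 dpi, against 2422 and 6685 in Ctrl.

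Over all nuclei of a library, 8 of the 9 genes were lower past 2-fold in Tgfbr2-cKO than in Ctrl at 7 dpi, where 50.7% of 21283 genes differed as much in either direction. At 21 dpi 5 of 9 were lower, beside 23.9% of all genes. Here a lower level can come from fewer nuclei of a class, from less RNA of the gene in each nucleus or from more RNA of other classes. These cannot be told apart in a library total. At 7 dpi neurons held 81.8% of the UMIs in Tgfbr2-cKO and 1.69% in Ctrl. The largest difference was in Ltbp2, at 48.03 (Ctrl), 12.1 (ADWA11) and 2.19 CPM (Tgfbr2-cKO) at 7 dpi, and in the same order 69.03, 66.3 and 7.67 CPM at 21 dpi over all nuclei, so that both Tgfbr2-cKO libraries lay below the other 4. Its log2 ratio at 7 dpi was -4.46 (-4.65 to -4.27). Ltbp4 was the gene that did not pass 2-fold at 7 dpi, at 0.07.

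Weighting each class by its share of UMIs in the Ctrl library of the same day gave smaller differences for 9 of 9 genes in Tgfbr2-cKO at 7 dpi and for 8 of 9 at 21 dpi, and with ADWA11 for 6 and 7 of 9. At 7 dpi the log2 ratio of Tgfb1 in Tgfbr2-cKO was -2.74 as measured and -0.37 at the Ctrl mix, and that of Nrros -2.60 as measured and -0.40 at the Ctrl mix. For Ltbp2 it was -4.46 as measured and -1.20 at the Ctrl mix, and for Tgfb3 -1.58 as measured and -1.07 at the Ctrl mix. The sign changed for Tgfb2, with -2.11 as measured and 0.57 at the Ctrl mix, where the sexes of the Tgfbr2-cKO fibroblasts lay on opposite sides of Ctrl, and for Lrrc32, with -2.16 as measured and 0.85 at the Ctrl mix. Tgfb3 and Ltbp2 were thus the genes that stayed past 2-fold lower at the Ctrl mix at 7 dpi. At 21 dpi they were so again, Tgfb3 with -1.74 as measured and -1.52 at the Ctrl mix and Ltbp2 with -3.17 as measured and -1.66 at the Ctrl mix, together with Ltbp1, with -1.24 as measured and -1.05 at the Ctrl mix. The sign of Lrrc32 changed at 21 dpi too, with -1.07 as measured and 0.49 at the Ctrl mix, and Tgfb2 had -0.92 as measured and -0.01 at the Ctrl mix. With ADWA11 at 21 dpi Tgfb2 had -0.46 as measured and 0.19 at the Ctrl mix. Among those that grew were Nrros in Tgfbr2-cKO at 21 dpi, with -0.39 as measured and -0.53 at the Ctrl mix, and Lrrc32 with ADWA11, with 0.40 as measured and 0.62 at the Ctrl mix at 7 dpi and 0.19 as measured and 0.63 at the Ctrl mix at 21 dpi. Ltbp2 with ADWA11 at 21 dpi had -0.06 as measured and 0.44 at the Ctrl mix.

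With ADWA11 the library totals differed less. At 7 dpi Tgfb3, Ltbp1 and Ltbp2 were lower past 2-fold, 3 of 9 genes beside 11.5% of all genes. Their log2 ratios were -1.32 as measured and -1.16 at the Ctrl mix for Tgfb3, -1.19 as measured and -1.07 at the Ctrl mix for Ltbp1 and -1.99 as measured and -1.86 at the Ctrl mix for Ltbp2. At 21 dpi Ltbp1 was lower and Nrros higher, 2 of 9 beside 16.1% of all genes. Ltbp1 kept a 2-fold difference at the Ctrl mix, with -1.89 as measured and -1.33 at the Ctrl mix, and Nrros did not, with 1.41 as measured and 0.50 at the Ctrl mix. Between the Ctrl libraries of 21 and 7 dpi 0 of the 9 genes differed past 2-fold over all nuclei, beside 22.4% of all genes.

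**Figure D4:**
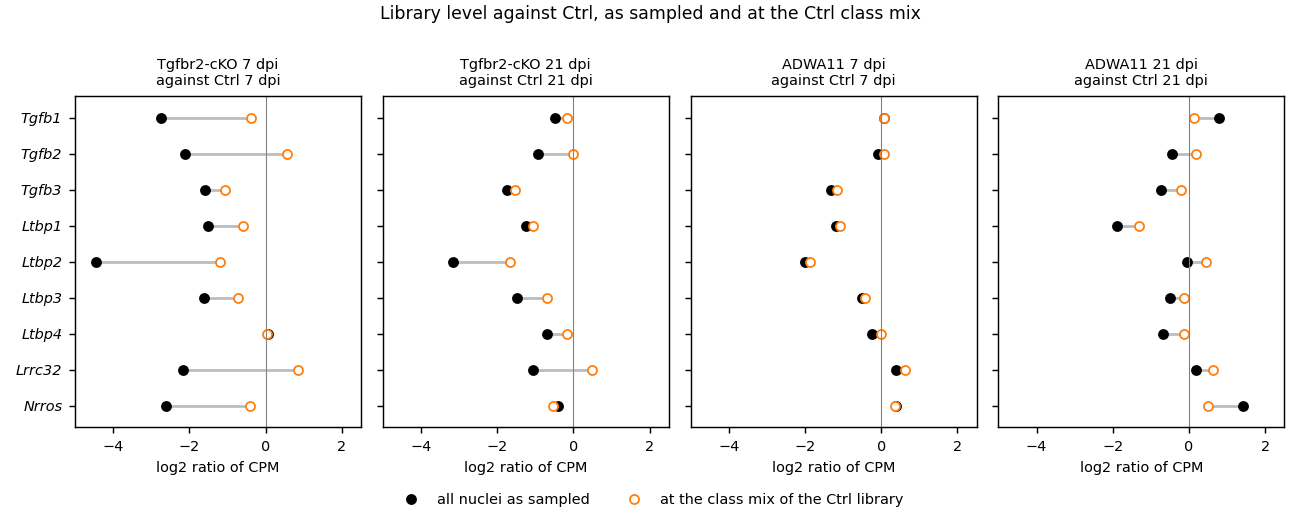
Log2 ratios to Ctrl of the same day over all nuclei, as measured and with each class weighted by its share of UMIs in Ctrl. In Tgfbr2-cKO at 7 dpi Tgfb1 moved from -2.74 to -0.37 and Ltbp2 from -4.46 to -1.20.

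Fibroblasts are the cells in which the receptor was targeted. At 7 dpi, Tgfbr2-cKO fibroblasts had lower Tgfb3 and Ltbp2 and higher Lrrc32 past 2-fold, 3 of 9 genes beside 13.8% of all genes tested in fibroblasts. The log2 ratio was -1.005 (-1.40 to -0.64) for Tgfb3, -1.11 (-1.36 to -0.86) for Ltbp2 and 1.35 (0.80 to 1.88) for Lrrc32. The interval of Tgfb3 spanned the 2-fold line. The ratio of Ltbp1 was -0.70 (-0.86 to -0.55) and that of Tgfb2 was 0.80 (0.67 to 0.92), both under 2-fold. Nuclei assigned to a sex by Xist and Y-linked UMIs, which separate the mice of a library, gave -0.44 in female and 1.29 in male nuclei for Tgfb2, on opposite sides of Ctrl, and -0.53 in female and -1.64 in male nuclei for Ltbp2. The Tgfbr2-cKO library had 404 fibroblasts, and each of the 3 calls was lost when nuclei were brought to 1 depth. With every nucleus thinned to 2000 UMIs the ratio was -0.89 for Tgfb3, -0.76 for Ltbp2 and 0.37 for Lrrc32.

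At 21 dpi Tgfb3, Ltbp1 and Ltbp2 were lower past 2-fold in Tgfbr2-cKO fibroblasts, 3 of 9 genes beside 16.9% of all genes. The log2 ratio of Tgfb3 was -1.71 (-1.996 to -1.43), with -2.49 in female and -1.28 in male nuclei. That of Ltbp1 was -1.47 (-1.65 to -1.29), with -1.43 in female and -1.60 in male nuclei, and that of Ltbp2 was -1.57 (-1.73 to -1.41), with -2.06 in female and -1.19 in male nuclei. For these 3 genes both sexes lay on the same side, past 2-fold. Tgfb1 (-0.59), Ltbp3 (-0.65), Ltbp4 (-0.36) and Nrros (-0.98) were lower under 2-fold, Tgfb2 was at 0.11 and Lrrc32 at 0.88. The leukocyte gene Ptprc stood in the same nuclei at 49.5 CPM in Tgfbr2-cKO and 78.6 CPM in Ctrl, and the sub-cluster led by myeloid genes was 15.1% and 35.8% of them. Without that sub-cluster Nrros turned to 0.14 and Tgfb1 was at -0.83.

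With ADWA11 at 7 dpi the genes past 2-fold in fibroblasts were Tgfb3, Ltbp1 and Ltbp2, lower, and Lrrc32, higher, 4 of 9 beside 10.2% of all genes. The log2 ratio was -1.32 (-1.47 to -1.17) for Tgfb3, -1.06 (-1.12 to -0.995) for Ltbp1, -1.86 (-1.97 to -1.76) for Ltbp2 and 1.04 (0.75 to 1.35) for Lrrc32. Ltbp2 had the largest difference, with -1.47 in female and -2.20 in male nuclei. Tgfb3 and Ltbp2 stayed past 2-fold under every alternative processing. Ltbp1, at -0.95 in female and -1.14 in male nuclei, and Lrrc32, at 0.88 after thinning, lay near the 2-fold line and fell under it in some.

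At 21 dpi with ADWA11 only Ltbp1 of the 9 genes passed 2-fold in fibroblasts, lower at -1.77 (-1.89 to -1.65), beside 8.23% of all genes. It was lower in both sexes, with -1.34 in female and -2.25 in male nuclei. Ltbp2 stood on the other side of Ctrl than at 7 dpi, at 0.47 (0.41 to 0.53), with 0.30 in female and 0.55 in male nuclei. The difference between the days was not tested. Tgfb3 was at -0.21 and Tgfb1 at 0.07, both under 2-fold. Nrros was at 0.26 in the class. Without the sub-cluster led by myeloid genes it was at 1.11, from 144 and 89 UMIs, and Ptprc was at 0.67.

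With time, Ltbp1 was the gene past 2-fold in Ctrl fibroblasts, lower at 21 than at 7 dpi by -1.49 (-1.55 to -1.42) on the log2 scale, beside 19.8% of all genes. Ltbp2 was at -0.10 and Tgfb3 at -0.30.

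**Figure D5:**
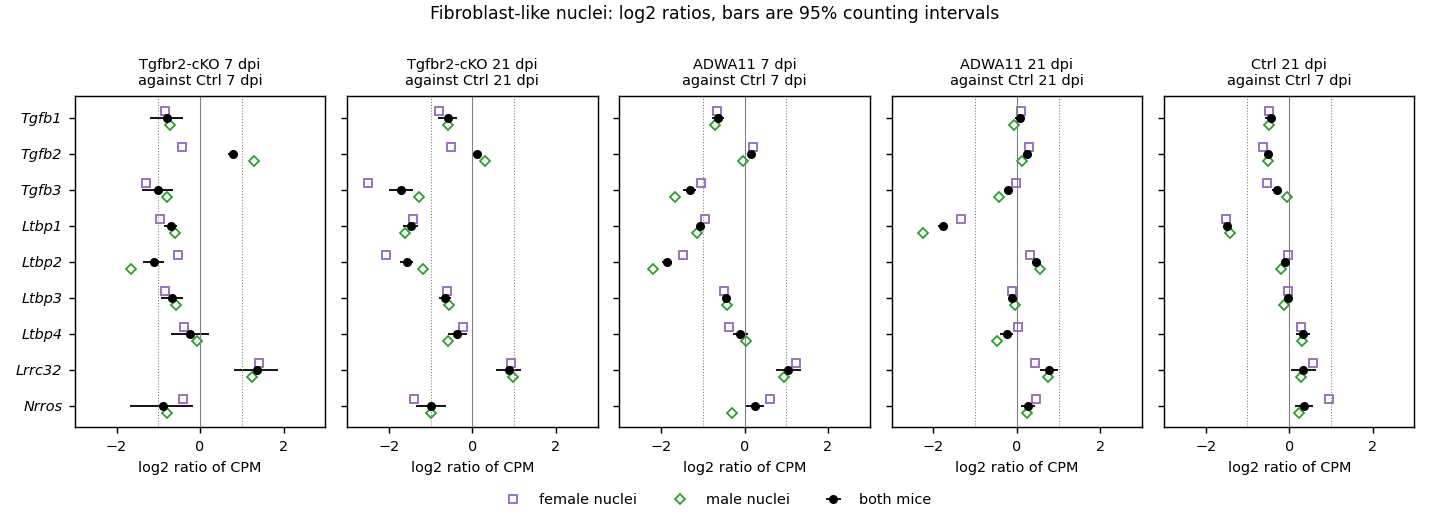
Log2 ratios of the 9 genes in fibroblasts for the 5 comparisons, with exact conditional binomial 95% intervals (counting error only) and the 2-fold lines. Ltbp2 was at -1.86 with ADWA11 at 7 dpi and at 0.47 at 21 dpi.

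The fibroblasts of the libraries were not of the same sub-clusters, and the part of this in the class values was not tested. From Ctrl over ADWA11 to Tgfbr2-cKO, first at 7 and then at 21 dpi, myofibroblasts numbered 1071, 1206, 141, 79, 6 and 4 nuclei, and late inner fibroblasts 177, 86, 3, 1397, 116 and 1. The Slc47a1-led sub-cluster numbered 56, 112, 21, 1984, 2295 and 94, and the low-UMI sub-cluster led by myeloid genes 517, 458, 72, 2391, 593 and 158. Of these 4, myofibroblasts were the most numerous in each 7 dpi library. The low-UMI sub-cluster was so in Ctrl at 21 dpi, which gave 57.1% of its nuclei, followed by the Slc47a1-led and late inner sub-clusters. A sub-cluster of 334 nuclei with Gabrg3 and Ebf3 among its leading genes came to 312 nuclei from Tgfbr2-cKO at 21 dpi. Arachnoid fibroblasts were the largest sub-cluster of that library, with 395 of its 1043 fibroblasts, against 596 of 6685 in Ctrl at 21 dpi.

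Within a sub-cluster the same genes could be set side by side at matched time. For Tgfbr2-cKO this is given at 7 dpi only, so its class differences at 21 dpi are not separated here from the makeup of the class. In 7 dpi myofibroblasts of ADWA11, the log2 ratio to Ctrl was -1.88 (-2.03 to -1.74) for Ltbp2 (41.2 against 152 CPM), -1.40 (-1.50 to -1.31) for Ltbp1 and -1.17 (-1.38 to -0.97) for Tgfb3. Lrrc32 was higher, at 1.24 (0.83 to 1.66). In 7 dpi myofibroblasts of Tgfbr2-cKO it was -0.997 (-1.35 to -0.66) for Ltbp2, -0.71 (-0.94 to -0.49) for Ltbp1 and 1.81 (1.07 to 2.51) for Lrrc32. Of these, Ltbp2 was at -0.10 in female and -2.03 in male nuclei. These ratios were on the side of Ctrl that the whole fibroblast class was on. In leptomeningeal fibroblasts at 7 dpi, Tgfbr2-cKO had Tgfb2 at 1.78 (1.52 to 2.04) and Ltbp1 at 0.05 (-0.22 to 0.32), the latter with an interval that held 0. There Tgfb2 was at 1.85 in female nuclei, from 43 and 60 UMIs, and at 1.71 in male nuclei. At 21 dpi the ADWA11 nuclei of the Slc47a1-led sub-cluster had Ltbp1 at -1.31 (-1.50 to -1.11) and Ltbp2 at 1.62 (1.51 to 1.73) (181 against 58.8 CPM). Ltbp1 of late inner fibroblasts was at -0.88 (-1.28 to -0.50). Between Ctrl libraries, Ltbp1 in myofibroblasts was at -1.22 (-1.53 to -0.94) at 21 against 7 dpi.

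Ltbp1 and Ltbp2 were lower past 2-fold in fibroblasts of the same 2 comparisons, ADWA11 at 7 dpi and Tgfbr2-cKO at 21 dpi, and their promoters are shown for that reason. Tgfb3 was lower past 2-fold in both as well, and no RefSeq window was matched for it. Each sequence is the RefSeq window of 300 bases around a start site on GRCm38.p6, 250 before and 50 after it, read along the gene's strand. The windows are chr17:75005279-75005578 and chr17:75178531-75178830 on the plus strand for the 2 starts of Ltbp1, and chr12:84876442-84876741 on the minus strand for Ltbp2. Capitals mark the Smad box CAGAC or its reverse GTCTG, the short motif bound by Smad3 and Smad4. TGANTCA, the AP-1 motif, was searched on both strands as well, and none of these windows held it.
Ltbp1 first start: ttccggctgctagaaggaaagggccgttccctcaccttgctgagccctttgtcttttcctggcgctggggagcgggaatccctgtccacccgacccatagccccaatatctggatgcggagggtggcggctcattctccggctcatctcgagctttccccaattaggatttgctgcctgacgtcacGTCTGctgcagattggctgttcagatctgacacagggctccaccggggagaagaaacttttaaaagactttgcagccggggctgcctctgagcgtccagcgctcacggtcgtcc
Ltbp1 second start: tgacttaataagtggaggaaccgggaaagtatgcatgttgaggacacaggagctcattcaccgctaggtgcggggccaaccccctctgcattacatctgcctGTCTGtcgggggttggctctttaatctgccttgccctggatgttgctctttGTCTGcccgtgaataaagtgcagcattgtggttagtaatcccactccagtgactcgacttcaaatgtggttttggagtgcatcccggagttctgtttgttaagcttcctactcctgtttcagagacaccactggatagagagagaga
Ltbp2: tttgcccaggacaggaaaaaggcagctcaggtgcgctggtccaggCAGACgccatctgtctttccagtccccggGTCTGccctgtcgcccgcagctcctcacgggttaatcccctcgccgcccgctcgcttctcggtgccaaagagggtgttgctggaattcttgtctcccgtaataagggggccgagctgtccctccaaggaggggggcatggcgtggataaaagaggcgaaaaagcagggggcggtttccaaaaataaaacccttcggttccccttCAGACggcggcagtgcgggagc
These hold 1, 2 and 3 Smad boxes. A Smad box was present in 49.6% of the 32851 RefSeq mouse promoter windows of this length and an AP-1 motif in 7.81%, so a match is common and does not mark a bound site. RefSeq windows were matched for 7 of the 9 genes, Tgfb3 and Lrrc32 being the others. The windows of Tgfb2 and Ltbp3 had 2 Smad boxes each, Nrros had 1, and Tgfb1 and the 3 starts of Ltbp4 had 0. Ltbp3 had 1 AP-1 motif, which overlapped a Smad box.

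In myeloid nuclei, the main source of Tgfb1 and Nrros, neither gene passed 2-fold over the class in any of the 5 comparisons. The log2 ratio of Nrros to Ctrl was 0.42 (0.37 to 0.48) at 7 dpi and 0.55 (0.49 to 0.61) at 21 dpi with ADWA11, and -0.35 (-0.45 to -0.26) and -0.50 (-0.59 to -0.42) in Tgfbr2-cKO. That of Tgfb1 was 0.20 (0.14 to 0.26) and 0.16 (0.08 to 0.24) with ADWA11, and -0.28 (-0.38 to -0.18) and -0.11 (-0.21 to -0.01) in Tgfbr2-cKO, the last being 0.01 in male nuclei. The microglial sub-clusters, low in Nrros, were a large part of the class in Tgfbr2-cKO and a small part with ADWA11. The part of this in the class values was not tested. Among sub-clusters with at least 50 nuclei in both libraries, Tgfb1 was higher with ADWA11 in 5 of 8 at 7 dpi and in 5 of 6 at 21 dpi, and lower in Tgfbr2-cKO in 4 of 5 and in 3 of 5. Nrros was higher with ADWA11 in 6 of 8 at 7 dpi and in 5 of 6 at 21 dpi. In the larger microglial sub-cluster it was lower with ADWA11, at -0.86 (-1.45 to -0.33) and -1.09 (-1.68 to -0.56), from 30 and 29 UMIs. In Tgfbr2-cKO Nrros was lower in 4 of 5 sub-clusters at 7 dpi and in 5 of 5 at 21 dpi. In the larger microglial one it was at -0.01 (-0.18 to 0.17) and -0.43 (-0.56 to -0.31). Of the 5 sub-clusters, 1 was lower past 2-fold for Nrros at 21 dpi (-1.11), and 1 for Tgfb1 at 7 dpi (-1.03).

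The genes past 2-fold in myeloid nuclei were at low level there and highest by median in other classes, for Ltbp4 in endothelial nuclei. In Tgfbr2-cKO 5 of the 8 genes with enough UMIs were lower at 7 dpi (Tgfb2, Tgfb3, Ltbp1, Ltbp2 and Ltbp3), beside 17.5% of all genes, and 6 were lower at 21 dpi (Tgfb3, Lrrc32 and the 4 LTBPs), beside 12.2%. With ADWA11 it was Ltbp1 and Ltbp2 at 7 dpi, beside 13.1%, and Ltbp1 and Ltbp4 at 21 dpi, beside 16.3%, each lower. In Ctrl at 21 against 7 dpi Tgfb3 and Lrrc32 were higher, beside 14.3%. The levels behind these counts were small. Ltbp1 of myeloid nuclei was 4.93 (Ctrl), 2.16 (ADWA11) and 2.06 CPM (Tgfbr2-cKO) at 7 dpi, and in the same order 3.38, 0.616 and 0.719 CPM at 21 dpi, and Ltbp2 was 3.88 (Ctrl), 1.34 (ADWA11) and 0.802 CPM (Tgfbr2-cKO) at 7 dpi, and in the same order 5.31, 4.90 and 0.639 CPM at 21 dpi.

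The collagen gene Col1a2, which myeloid cells should lack, was also counted in myeloid nuclei. At 7 dpi it was 212 (Ctrl), 106 (ADWA11) and 7.91 CPM (Tgfbr2-cKO), and at 21 dpi 402, 199 and 11.2 CPM in the same order. It was thus higher in Ctrl at 21 than at 7 dpi, where Ltbp1 was lower. The Col1a2 level in myeloid nuclei was 6.99%, 5.40%, 0.759%, 13.6%, 9.25% and 2.44% of that in fibroblasts of the same library, from Ctrl over ADWA11 to Tgfbr2-cKO, first at 7 and then at 21 dpi. For Ltbp1 the percentage was 1.3% to 3.8%, for Ltbp2 1.4% to 4.6% and for Tgfb3 2.2% to 7.5%. Each was below Col1a2 in the 4 Ctrl and ADWA11 libraries, apart from Tgfb3 with ADWA11 at 7 dpi (6.01%). In Tgfbr2-cKO at 7 dpi all 3 were above it, at 1.34%, 1.39% and 2.21%, and at 21 dpi Tgfb3 was (6.80%). For Ltbp3 it was 6.4% to 21.1% and for Ltbp4 6.0% to 16.7%. For Tgfb2 it was 0.812% to 6.02% and for Lrrc32 0.534% to 24.7%. How far RNA from fibroblasts, free or in doublets, entered the myeloid values was not tested.

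Among the other classes, that of oligodendrocyte precursors, glial cells that give rise to oligodendrocytes, was not sub-clustered. It had 9 precursor and 4 oligodendrocyte markers raised, with Bcas1, Neu4 and Gpr17 among its leading genes. Whether its makeup differed between libraries was not tested. Ltbp1 of these precursors was higher past 2-fold in Tgfbr2-cKO at both times. Its level there was 33.04 (Ctrl), 25.6 (ADWA11) and 134 CPM (Tgfbr2-cKO) at 7 dpi, and in the same order 37.96, 30.99 and 179 CPM at 21 dpi, the ADWA11 value of 21 dpi coming from 39 nuclei. Both Tgfbr2-cKO libraries were above the other 4, which lay between 25.6 and 37.96 CPM. The log2 ratio was 2.02 (1.72 to 2.33) at 7 dpi and 2.24 (1.81 to 2.68) at 21 dpi. Female nuclei of Ctrl and Tgfbr2-cKO held 30.8 and 124 CPM at 7 dpi and 36.7 and 287 CPM at 21 dpi. Male nuclei held 30.5 and 177 CPM, and later 42.4 and 129 CPM, so the difference was present in both sexes. After thinning each nucleus to 2000 UMIs, 5.86% (Ctrl) and 18.8% (Tgfbr2-cKO) of precursors had an Ltbp1 UMI at 7 dpi, and 8.13% and 24.8% at 21 dpi. Before thinning these were 11.5% and 27.8%, and 17.1% and 46.8%, at median depths of 6319, 5063, 7360 and 8607 UMIs. Myeloid nuclei were at 0.301% to 1.05% in the same 4 libraries after thinning. Col1a2 in the precursors was 320.1 CPM (Ctrl) and 15.1 CPM (Tgfbr2-cKO) at 7 dpi, later 410.2 and 33.98 CPM. Col1a2 follows fibroblast RNA only. Neurons held 74.4% of the Ltbp1 UMIs of the 7 dpi Tgfbr2-cKO library. Whether RNA from other nuclei had a part in the Ltbp1 levels of precursors was not tested.

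Differences past 2-fold were also present in the remaining classes, and the following were chosen after their values were seen. In mural nuclei Ltbp1 was 32.6 CPM with ADWA11 and 309 CPM in Ctrl at 7 dpi, the value that rested on 5 nuclei. Its direction turned in female nuclei, at 46.1 CPM with ADWA11 and 22.8 CPM in Ctrl, from 11 and 5 UMIs. In endothelial nuclei Ltbp2 was 1.28 CPM with ADWA11 and 12.7 CPM in Ctrl at 7 dpi, from 2 and 24 UMIs, with a log2 ratio of -3.31 (-6.44 to -1.30). Col1a2 in the same nuclei was 310 CPM with ADWA11 and 475 CPM in Ctrl. Whether fibroblast RNA had a part in their Ltbp2 was not tested. In astrocytes Ltbp1 was 65.4 (Ctrl), 35.4 (ADWA11) and 93.6 CPM (Tgfbr2-cKO) at 7 dpi, and in the same order 63.98, 20.2 and 60.1 CPM at 21 dpi, lower past 2-fold with ADWA11 at 21 dpi (-1.66 (-2.09 to -1.26)). Ltbp2 in astrocytes was 1.20 CPM in Tgfbr2-cKO and 13.7 in Ctrl at 21 dpi, where Col1a2 in astrocytes was 22.9 and 552 CPM, and whether this came from fibroblast RNA was not tested. In cluster 20 both genes were lower with ADWA11 at 7 dpi, Ltbp1 at -1.16 (-1.61 to -0.72) and Ltbp2 at -2.81 (-3.76 to -1.96). Ltbp1 there was also lower in Ctrl at 21 than at 7 dpi, at -1.36 (-1.77 to -0.96). Tgfb2 of oligodendrocyte precursors was 64.7 (Ctrl), 26.5 (ADWA11) and 34.2 CPM (Tgfbr2-cKO) at 7 dpi, and in the same order 27.97, 39.4 and 37.7 CPM at 21 dpi. The 7 dpi Ctrl library was the highest, and the ratio with ADWA11 at 7 dpi was -1.29 (-1.54 to -1.03). Col1a2 in these precursors was 320.1 (Ctrl) and 133 CPM (ADWA11) at 7 dpi, lower with ADWA11 as well. Whether fibroblast RNA had a part in their Tgfb2 levels was not tested.

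The wider pathway was followed through a list of 21 genes that anchor or activate the latent complex and a list of 5 TGFb receptors, with the CPM of both libraries in brackets after a ratio. In fibroblasts of Tgfbr2-cKO at 7 dpi 3 of 20 anchoring and activation genes with enough UMIs were lower past 2-fold and 0 higher, beside 13.8% of all genes. These were Thbs1, an activator that binds the propeptide (-1.16 (27.6 against 61.5 CPM)), the membrane protease gene Mmp14 (-1.06 (124 against 259.8 CPM)) and Plau, encoding urokinase (-1.01 (3.29 against 6.64 CPM)). Plau rested on 8 UMIs of Tgfbr2-cKO, with an interval of -2.26 to 0.01, and was at 0.29 after thinning and 0.41 in female nuclei. Thbs1 and Mmp14 were at -1.29 and -1.25 after thinning, and Thbs1 was under 2-fold in female nuclei, at -0.54. At 21 dpi 4 of 20 passed 2-fold, beside 16.9% of all genes. Emilin1, a matrix protein that restrains processing of the TGFb precursor (-1.42 (14.5 against 38.7 CPM)), and Thbs2 (-1.43 (53.1 against 143 CPM)) were lower, and Fbn2, encoding a fibrillin to which LTBPs bind (2.23 (219 against 46.6 CPM)), and the gelatinase gene Mmp9 (2.60 (8.96 against 1.48 CPM)) were higher. Mmp9 was at 4.17 in female and -0.04 in male nuclei. The medians of the list were -0.16 and -0.30, beside 0.09 and -0.02 over all genes tested. Of the receptors, Tgfbr3, the betaglycan co-receptor that presents TGFb2, was higher past 2-fold at both times, at 1.21 (745 against 322 CPM) and 1.34 (969 against 382 CPM).

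With ADWA11 the fibroblasts had lower Adamtsl2, encoding a fibrillin-binding matrix protein, at both times, with log2 ratios of -3.29 (0.274 against 2.68 CPM) and -4.57 (0.0741 against 1.77 CPM). The later value rested on 2 UMIs in ADWA11 and 67 in Ctrl, and the counting interval of its ratio was -7.65 to -2.67. At 7 dpi the ratio was -5.23 in male nuclei, from 1 and 30 UMIs. In female nuclei it was -1.40, from 7 and 10 UMIs, too few to be counted. After thinning Adamtsl2 had too few UMIs to be counted at either time. Adamtsl2 was 1 of 20 counted genes past 2-fold at 7 dpi, beside 10.2% of all genes, and at 21 dpi Itgb6, Thbs1 and Mmp9 were higher as well among 21, beside 8.23%. Thbs1 was at 1.03 (90.7 against 44.4 CPM), and 0.68 in female nuclei. Mmp9 was at 1.98, and 0.98 after thinning. Itgb6 was at 2.23, with too few UMIs to be counted after thinning and in female nuclei. Tgfbr3 was at 1.09 (685 against 322 CPM) at 7 dpi and 0.61 at 21 dpi. In Ctrl fibroblasts at 21 against 7 dpi 4 of 20 genes were lower and 0 higher, beside 19.8% of all genes. These were Fbn2 (-2.57 (46.6 against 277 CPM)), Fn1, encoding fibronectin (-1.01 (628 against 1267 CPM)), at -0.85 in male nuclei, the crosslinking enzyme gene Tgm2 (-1.48) and Itgb3 (-1.19).

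In myeloid nuclei the ADWA11 libraries had lower Tgfbr1, encoding the type I receptor, at both times. Its log2 ratio was -1.07 (509.8 against 1068 CPM) at 7 dpi and -1.56 (406 against 1199 CPM) at 21 dpi, the only receptor of the 5 past 2-fold there. The class differed in its share of nuclei in the microglial sub-clusters, as given for Nrros. Within sub-clusters Tgfbr1 was lower in 8 of 8 at 7 dpi, at -1.07 to -0.19, and in 6 of 6 at 21 dpi, at -1.27 to -0.56. Of 19 anchoring and activation genes 7 were lower at 7 dpi and 4 at 21 dpi, with 0 higher, beside 13.1% and 16.3% of all genes. They included Itgb5, encoding an integrin subunit (-1.34 (325 against 819.8 CPM) and -1.23 (266 against 621 CPM)), and Fn1 (-2.003 (55.99 against 224 CPM) and -2.10 (29.5 against 126 CPM)). Itgb5 was lower in 8 of 8 and 6 of 6 sub-clusters, and Fn1 in 6 of 8 and 6 of 6. In Tgfbr2-cKO 7 of 19 were lower at 7 dpi (Fbn1, Fbn2, Thbs2, Mmp2, Mmp9, Mmp14 and Bmp1) and 6 at 21 dpi (Fbn1, Emilin1, Thbs2, Mmp2, Plau and Plat), and 0 were higher, beside 17.5% and 12.2% of all genes. Several of these are fibroblast matrix genes, and the Col1a2 percentages above were measured in the same nuclei. Itgb8, encoding the integrin subunit that ADWA11 blocks, stood at 225 (Ctrl), 217 (ADWA11) and 175 CPM (Tgfbr2-cKO) at 7 dpi, and in the same order 286, 257 and 282 CPM at 21 dpi in astrocytes and at 187 (Ctrl), 209 (ADWA11) and 186 CPM (Tgfbr2-cKO) at 7 dpi, and in the same order 129, 151 and 201 CPM at 21 dpi in fibroblasts.

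Across 57 class-by-library profiles, classes with at least 50 nuclei in a library, the genes whose log2(CPM + 1) followed each member most closely were found among 15009 genes. The profiles share libraries and cell classes, so Pearson's r is given as a description. Rap1b (r = 0.97), Casp8 (0.95) and Hpcal1 (0.94) followed Tgfb1. Tead1 (0.95), Nhsl1 (0.94) and Parva (0.94) followed Tgfb2, and Adamts2 (0.89), Zfhx4 (0.88) and Bicc1 (0.88) followed Tgfb3. For Ltbp1 they were Gm32618, Arhgap42 and Gpc6, each with r = 0.89. For Ltbp2 they were the crosslinking enzyme genes Loxl1 (0.88) and Lox (0.86), with Cpz (0.87) between them. Boc (0.89), Egfr (0.88) and Amot (0.87) followed Ltbp3, and Filip1 (0.91), Sptbn1 (0.90) and Tshz2 (0.90) followed Ltbp4. The basement membrane genes Nid1 (0.88) and Col4a1 (0.84), with Nr2f2 (0.85), followed Lrrc32. Grb2 (0.94), Lcp1 (0.94) and Tnfrsf1b (0.93) followed Nrros. Among the members, Tgfb1 and Nrros had r = 0.85, Tgfb2 and Ltbp3 0.81, and Tgfb1 and Tgfb2 -0.33.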

How the data were processed

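Nuclei of PT lesions with residual brain parenchyma were measured by droplet single-nucleus RNA sequencing in 6 libraries, 1 per condition and day. The authors deposited UMI counts per gene and barcode, aligned to mm10 and counted with Cell Ranger, 7.2.0 per the file headers and 7.1.0 per the submitters' processing notes. The genes described and all lists were chosen with earlier results of these data known.

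Barcodes within the lowest or highest 2.5% of UMIs or genes of a library, or the highest 2.5% of mitochondrial share, were removed, leaving 61917 of 67360. Simulated doublets (2 per nucleus) marked 5825 nuclei, which stayed in unless their sub-cluster was mostly marked. That removed 780 nuclei and left 61137. Nuclei were clustered with Seurat 5.3.0 on sctransform 0.4.2 residuals (R 4.3.3), leaving the genes described here and the pathway lists out of the features, and clusters were named where at least 3 fixed markers were raised. Gene coordinates are those of GENCODE M21 on GRCm38, matched by gene identifier.

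Sums used python 3.11.15, numpy 2.4.6 and scipy 1.17.1. The ratio and its interval were tested on simulated data. Named genes were the 9 members in every class, list genes past 2-fold, and the 3 most alike genes of each member. Depth was 64798965 to 140310354 UMIs per library. Alternatives were edgeR 4.0.16 TMM scaling, clustering on log-normalised counts, thinning to 2000 UMIs, called doublets out, 1 sex alone, the mean over nuclei, the 5 nuclei with most UMIs of a gene out, at least 100 UMIs and no barcode filter (both for counts of genes), and, chosen after seeing the data, leaving out 5015 nuclei of sub-clusters led by genes of another class, and thinning and 1 sex alone for the list genes.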

Additional observations from a re-analysis of the deposited data

Results flagged for a closer look

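Ltbp2 in fibroblasts went opposite ways with ADWA11 on the 2 days, in the nuclei of both sexes. Its log2 ratio to Ctrl of the same day was -1.86 at 7 dpi and 0.47 at 21 dpi. At 7 dpi it was -1.47 in female and -2.20 in male nuclei, and at 21 dpi 0.30 and 0.55. The difference between the days was not tested, since each condition and day had 1 library. The fibroblasts compared were mostly of other sub-clusters on the 2 days, with 1206 ADWA11 myofibroblasts at 7 dpi and 2295 ADWA11 nuclei of the Slc47a1-led sub-cluster at 21 dpi. Within them the ratio was -1.88 and 1.62.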

How the results depend on the processing

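No paired analysis was possible because each condition and day had 1 library and its mice carry no replicate number, so no replicate library could be left out, while female or male nuclei alone leave out the mice of 1 sex in each library. Of the 47 differences past 2-fold of the 9 genes over all nuclei, in fibroblasts and in myeloid nuclei, the direction was kept in 47 under 7 alternatives (female nuclei, TMM scaling, thinning, the mean over nuclei, called doublets out, the 5 top nuclei of each gene out, and sub-clusters led by genes of another class out), in 29 of 29 within classes with log-normalised clustering, and in 45 of 46 in male nuclei, the exception being Lrrc32 in myeloid nuclei of Ctrl at 21 against 7 dpi, 2.18 in all and -0.0705 in male nuclei, where it had too few UMIs to be counted. The other classes were not counted here. Of 47 differences past 2-fold of list genes in fibroblasts or myeloid nuclei, 39 stayed so after thinning, 35 in female and 39 in male nuclei, settings chosen for them after seeing the data. Mmp9 in myeloid nuclei of Tgfbr2-cKO at 7 dpi was at 0.44 after thinning, from too few UMIs to be counted. In Tgfbr2-cKO fibroblasts the direction turned for Plau at 7 dpi, 0.29 after thinning and 0.41 in female nuclei, and for Mmp9 at 21 dpi, -0.0381 in male nuclei.
The number of the 9 genes past 2-fold moved by over 1.5 times in these cases. In fibroblasts of Tgfbr2-cKO at 7 dpi it was 3, 5 with TMM scaling and 1 after thinning, and at 21 dpi it was 3, and 5 both after thinning and by the mean over nuclei. With ADWA11 it was 4 at 7 dpi, and 2 both after thinning and by the mean over nuclei, and 1 at 21 dpi, and 2 both after thinning and without the sub-clusters led by genes of another class. In myeloid nuclei of Tgfbr2-cKO it was 5 at 7 dpi, and 3 in each of female nuclei, without called doublets and with log-normalised clustering, and 6 at 21 dpi and 1 from at least 100 UMIs. With ADWA11 at 21 dpi it was 2, and 1 in each of TMM scaling, at least 100 UMIs and log-normalised clustering, and in Ctrl at 21 against 7 dpi it was 2, then 0 from at least 100 UMIs and 1 after thinning. Over all nuclei it was 2 with ADWA11 at 21 dpi and 4 in male nuclei. Apart from the effect of the minimum of 100 UMIs, which leaves fewer genes counted, the cause was not tested. TMM scaling moved every log2 ratio of Tgfbr2-cKO at 7 dpi by 0.39 over all nuclei, -0.22 in fibroblasts and -0.11 in myeloid nuclei, and those of ADWA11 at 21 dpi in myeloid nuclei by 0.11 and of Ctrl over time in myeloid nuclei by -0.11. The class with most UMIs of a gene changed in Tgfbr2-cKO libraries, in 3 of 54 gene and library pairs with female nuclei, 3 with male nuclei and 4 after thinning. At 7 dpi these were Tgfb2 and Lrrc32, and at 21 dpi Tgfb2, Tgfb3, Ltbp1 and Ltbp4. Depth limited Lrrc32 most, with 98 to 515 UMIs per library.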

Other observations

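Tgfb2 in neurons differed between libraries. At 7 dpi it was 22.6 CPM (Ctrl) and 8.74 CPM (Tgfbr2-cKO). At 21 dpi it was 73.7 (Ctrl), 81.9 (ADWA11) and 11.9 CPM (Tgfbr2-cKO), with 27 ADWA11 neurons at 7 dpi left out. Neuron numbers in these libraries ran from 69 to 5610, and the neurons were not of the same sub-clusters. A low-UMI sub-cluster led by Col1a2 and other collagen genes held 35.1% and 3.78% of them at 7 dpi (Ctrl, then Tgfbr2-cKO), and at 21 dpi 63.8% (Ctrl), 11.6% (ADWA11) and 22.3% (Tgfbr2-cKO), and 57 of the 69 ADWA11 neurons at 21 dpi were of the sub-cluster with Igfbpl1 among its leading genes. Without the Col1a2-led sub-cluster, Tgfb2 was 21.7 and 8.45 CPM at 7 dpi, and 78.5, 83.7 and 11.7 CPM at 21 dpi. Whether neuron type or fibroblast RNA had a part in these levels was not tested. Lrrc32 in T cells was 6.83 CPM in ADWA11 and 1.24 CPM in Ctrl at 21 dpi, from 19 and 1 UMIs, and the interval of the log2 ratio held 0, at 2.46 (-0.19 to 7.84).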
